A study of Mus musculus with 2 samples.

Results

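The metallothioneins Mt1 and Mt2, their zinc-sensing transcription factor Mtf1 and the zinc exporter Slc30a1 were followed through 2 single-cell RNA libraries of leukocytes from mouse visceral adipose tissue (VAT). These 4 genes, of 27998 in the count tables, were chosen by symbol, with their levels in these libraries already known, so the values below describe them and are not a test of the choice. Mt1 was the 31st most abundant transcript in the resident macrophages of obese VAT, at 3878 UMIs (counted transcripts) per 1000000 (CPM), whereas Mtf1 and Slc30a1 stayed below 30 CPM in every leukocyte type that was compared. Mt1 was lower in the library from calorically restricted (CR) mice in 12 of 12 compared leukocyte types, or in 10 with cells thinned to equal depth and in 11 with possible doublets left out. Both metallothioneins were higher in CR in cells gated as fibroblasts or preadipocytes.

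Metallothioneins are small, cysteine-rich proteins that bind zinc and copper and buffer the free metal of the cell. When free zinc rises, MTF1 binds it and enters the nucleus, where it switches on Mt1, Mt2 and Slc30a1 through short promoter motifs called metal response elements. SLC30A1, also named ZnT1, then carries zinc out across the plasma membrane, and metallothionein genes also answer to glucocorticoids and to oxidative stress. Metallothioneins are widely expressed in adipose stroma and in macrophages.

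Both libraries came from male C57BL/6J mice bought at 6 weeks of age and acclimated for 2 weeks. All mice then ate a diet with 60% of its energy from fat and 0.3% cholesterol, and each week received 5 mg/kg of an antisense oligonucleotide against the low-density lipoprotein receptor, for 24 weeks. The obese group was harvested at that point, and the CR group was held for 2 further weeks at 70% of ad libitum intake of the same diet, per the methods of the study. The sample label of the CR library instead speaks of life-long restriction, and this difference between label and methods could not be settled here. The mice were perfused, the perigonadal VAT was digested, and viable CD45+ cells were sorted and run on the 10x Genomics 3′ assay, in which each captured transcript counts as 1 unique molecular identifier (UMI). The number of mice behind each library is not given in the sources used here, and the lean library of the study was not analysed here.

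The obese library held 5795 barcodes and 42948242 UMIs, and the CR library 3562 barcodes and 19696476 UMIs. After limits on mitochondrial share and total UMIs, 5262 obese and 2987 CR cells remained, with medians of 6740.5 and 4802 UMIs per cell. The libraries shared 28 barcodes, 18 of them kept in both. Cells were gated by the marker list they scored highest on, with 7624 of 8249 cells gated, of which 381 lay within 0.1 score units of a cut, 155 of them in the C1q macrophage gate. The sort was for CD45+ cells, but 411 cells were gated as fibroblast or preadipocyte (106 obese, 305 CR), and Ptprc, the gene of CD45, had a UMI in 19.8% of those obese and 13.8% of those CR cells. Their leading genes were Dcn, Clec3b, Col3a1, Mfap5 and Lum, which are matrix genes of fibroblasts. Several leading genes of this gate are on the marker list that made it. They lead by construction and are no separate check of identity. Doublets were left in, and 879 kept cells passed gates of different lineages. With 1 library per condition there is no replicate check and no test of the conditions. Every interval below is an exact 95% interval that covers counting error only. Intervals on levels, ratios and differences take each UMI as independent and leave out the spread among cells of a gate. Where they do not overlap, they separate summed counts only. Differences between mice and between library preparations cannot be told apart from the effect of CR.

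Mt1 and Mt2 lie side by side on chromosome 8 of the mouse genome. In GRCm38 (GENCODE annotation), Mt1 (ENSMUSG00000031765) spans chr8:94179082-94180327 and Mt2 (ENSMUSG00000031762) spans chr8:94172664-94173568, both on the plus strand, with 5513 bases between them. Mt3 and Mt4, the other metallothionein genes of the cluster, lie upstream of Mt2 at chr8:94152607-94154146 and chr8:94137197-94139031. Mtf1 (ENSMUSG00000028890) spans chr4:124802104-124849800 and Slc30a1 (ENSMUSG00000037434) spans chr1:191906767-191913247. The longest run of bases shared by the longest annotated transcripts of Mt1 and Mt2 was 20. None of the 1036 stretches of 50 bases in the Mt1 transcript or the 462 in the Mt2 transcript occurred in a transcript of another gene. Reads of this length from these transcripts therefore separate the pair. The longest Mt1 transcript has 1 exon and that of Mt2 has 3, so junctions of spliced Mt1 forms were not among the stretches searched.

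The promoters of Mt1, Mt2 and Slc30a1 were searched for the core of the metal response element, as TGCACNC or TGCGCNC on either strand, because MTF1 is known to bind it. The 250 bases before the RefSeq start (GRCm38.p6) are shown for these genes in the direction of transcription, with matches in capitals.

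Mt1 window (chr8:94178839-94179088, plus strand): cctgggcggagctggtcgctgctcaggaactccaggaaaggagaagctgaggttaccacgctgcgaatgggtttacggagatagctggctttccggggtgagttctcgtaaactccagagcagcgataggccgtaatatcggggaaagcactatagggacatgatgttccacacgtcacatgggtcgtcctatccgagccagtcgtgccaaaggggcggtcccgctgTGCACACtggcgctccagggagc
Mt2 window (chr8:94172368-94172617, plus strand): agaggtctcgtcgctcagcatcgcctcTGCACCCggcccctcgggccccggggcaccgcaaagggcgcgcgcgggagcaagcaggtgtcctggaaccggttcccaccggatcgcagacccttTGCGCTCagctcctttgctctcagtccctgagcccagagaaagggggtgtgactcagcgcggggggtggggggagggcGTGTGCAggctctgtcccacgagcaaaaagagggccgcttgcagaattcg
Slc30a1 window (chr1:191906531-191906780, plus strand): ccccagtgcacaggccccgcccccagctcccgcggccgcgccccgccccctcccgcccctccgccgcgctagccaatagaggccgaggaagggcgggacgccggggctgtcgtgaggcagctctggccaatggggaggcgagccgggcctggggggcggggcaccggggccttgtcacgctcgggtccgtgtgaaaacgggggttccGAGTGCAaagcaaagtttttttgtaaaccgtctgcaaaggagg

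In these windows Mt1 had 1 match, Mt2 had 3, Slc30a1 had 1 and Mtf1 had 0. Of 32851 promoter windows of the same length, 21.4% held at least 1 match and 1.26% held at least 3. The RefSeq starts of the metallothionein genes lie upstream of a TATAAA, the sequence that places the start of many strongly regulated genes. It begins 121 bases after the RefSeq start of Mt1 and 135 bases after that of Mt2. The 250 bases before TATAAA, a window chosen after the sequences were seen, held 5 matches in Mt1 and 5 in Mt2. Among the RefSeq windows, which are anchored differently, 0.0822% (27 windows) held at least 5. The sites are shown with 3 bases on each side, as read on the plus strand, with the matched core in capitals and the coordinates of the core.

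Mt1 site 144 bases before TATAAA (chr8:94179066-94179072): ctgTGCACACtgg
Mt1 site 119 bases before TATAAA (chr8:94179091-94179097): ctcTGCACTCcgc
Mt1 site 101 bases before TATAAA (chr8:94179109-94179115): aagTGCGCTCggc
Mt1 site 37 bases before TATAAA (chr8:94179173-94179179): gctGGGTGCAaac
Mt1 site 23 bases before TATAAA (chr8:94179187-94179193): cttTGCGCCCgga
Mt2 site 185 bases before TATAAA (chr8:94172568-94172574): ggcGTGTGCAggc
Mt2 site 131 bases before TATAAA (chr8:94172622-94172628): gtcGTGCGCAggc
Mt2 site 77 bases before TATAAA (chr8:94172676-94172682): ggcGTGTGCAggc
Mt2 site 58 bases before TATAAA (chr8:94172695-94172701): ggcGCGTGCAtgg
Mt2 site 24 bases before TATAAA (chr8:94172729-94172735): tttTGCGCTCgac

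All 5 matches of Mt1 lay within 150 bases of TATAAA, 4 of them on the plus strand, while Mt2 had 4 within that distance and 4 of 5 on the minus strand. These matches describe the letters only. Factor binding was not measured.

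By summed UMIs, Mt1 was highest in tissue-resident and fibroblast-like cells and lowest in lymphocytes. In the obese library the resident macrophages, gated on Lyve1, Folr2, Cbr2 and Fcna, held 3878 CPM (3786 to 3972, 259 cells). The fibroblast or preadipocyte gate followed with 2669 CPM (2546 to 2797, 106 cells). Macrophages led by the complement genes C1qa, C1qb and C1qc held 2466 CPM (2433 to 2499, 1157 cells). Lipid-associated macrophages, gated on Gpnmb, Mmp12 and Trem2, held 1913 CPM (1882 to 1945, 608 cells). The intervals of these 4 gates did not overlap. Plasma cells, the antibody-secreting B lineage cells, reached 2261 CPM (2123 to 2405) in only 44 cells.

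Lower in the order stood cycling cells with 1225 CPM (1190 to 1261) and Fcgr4-high macrophages, which carry the Fc receptor gene Fcgr4, with 1135 CPM (1072 to 1202), whose intervals overlapped. Classical monocytes held 865 CPM (818 to 913) and Cd209a-positive type 2 dendritic cells 755 CPM (717 to 794). Patrolling monocytes, type 1 dendritic cells, B cells and T cells lay between 366 and 424 CPM with overlapping intervals. Natural killer (NK) cells were lowest of the compared leukocyte types, at 260 CPM (225 to 299). Of the 385 cycling cells of both libraries, 342 carried macrophage markers. The span from NK cells to resident macrophages was 14.9-fold.

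In the CR library the fibroblast or preadipocyte gate moved to the top with 3814 CPM (3726 to 3902, 305 cells), where Mt1 ranked 17th among all genes. Resident macrophages held 2153 CPM (2017 to 2296, 57 cells), C1q macrophages 1752 CPM (1680 to 1826, 182 cells) and lipid-associated macrophages 1399 CPM (1330 to 1470, 106 cells). Fcgr4-high macrophages, the most numerous macrophage gate after CR with 553 cells, held 861 CPM (829 to 894). Monocytes, cycling cells and type 2 dendritic cells lay between 335 and 613 CPM. T cells were lowest of the compared leukocyte types there, at 164 CPM (140 to 190), and the span over leukocyte types was 13.2-fold.

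**Figure D1:**
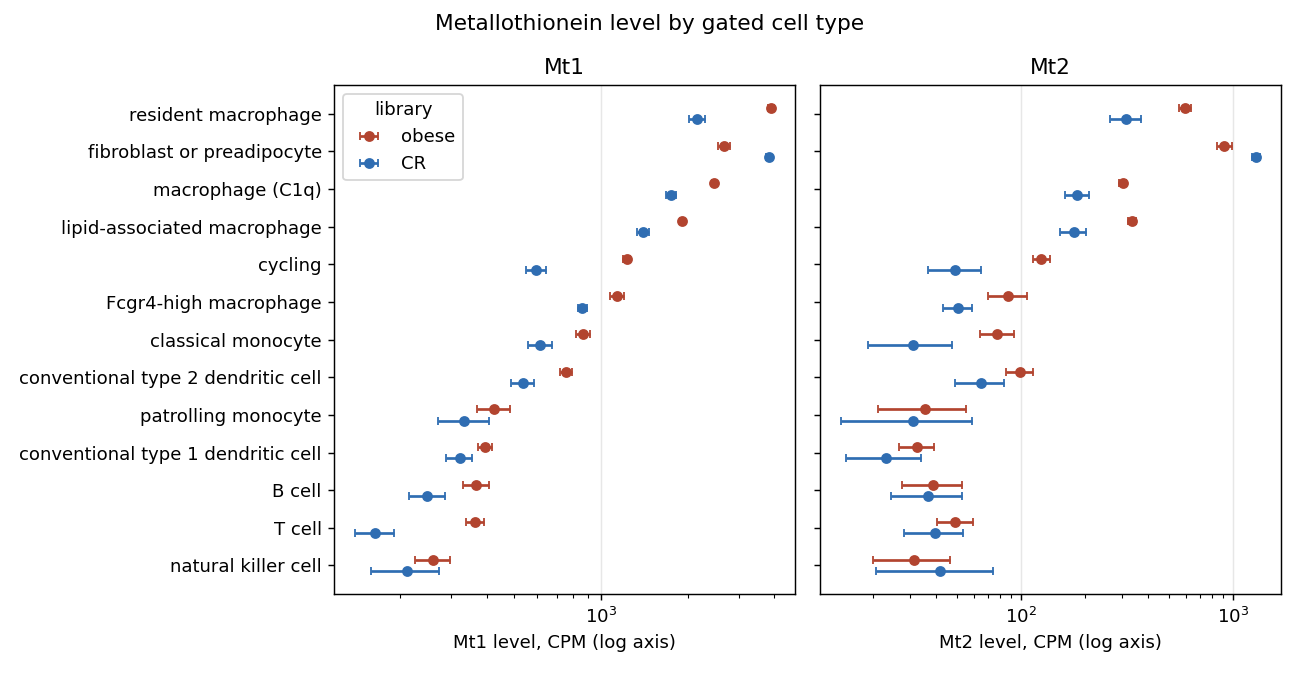
Level of Mt1 (left) and Mt2 (right) in CPM on a log axis for 13 gated cell types, 12 leukocyte types and fibroblast or preadipocyte cells, with obese cells in red and CR cells in blue. Points are levels from summed UMIs and bars are exact 95% Poisson intervals, which cover counting error only. The blue Mt1 point lies left of the red one in every leukocyte type and right of it in fibroblast or preadipocyte cells (2669 obese, 3814 CR).

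Mt2 was lower than Mt1 in each of these types, and its order differed in places. In the obese library Mt2 reached 914 CPM (842 to 990) in the fibroblast or preadipocyte gate, 596 CPM (560 to 633) in resident macrophages, 335 CPM (322 to 349) in lipid-associated macrophages and 303 CPM (291 to 315) in C1q macrophages. Plasma cells, with 941 CPM (853 to 1036), did not differ from the fibroblast gate beyond counting error. In the other compared leukocyte types Mt2 lay between 31.2 CPM in NK cells and 125 CPM in cycling cells. Type 2 dendritic cells (98.9 CPM, 85.5 to 114) stood above Fcgr4-high macrophages (86.8, 69.9 to 107) and classical monocytes (77.4, 64.0 to 92.8). This is the reverse of their Mt1 levels, but these Mt2 intervals overlapped, so the reversal was not beyond counting error. In the CR library Mt2 stood at 1287 CPM (1237 to 1339) in the fibroblast or preadipocyte gate and 313 CPM (263 to 370) in resident macrophages. It was 185 CPM (162 to 210) in C1q, 178 CPM (154 to 204) in lipid-associated and 50.3 CPM (42.9 to 58.7) in Fcgr4-high macrophages.

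The proportion of Mt1 to Mt2 differed between cell types beyond counting error. UMIs from transcript ends do not grow with transcript length, but the capture of either transcript may differ, so the ratio is compared between cell types and libraries and not read as the proportion of the RNAs themselves. Fibroblast or preadipocyte cells had 2.92 Mt1 UMIs per Mt2 UMI (2.66 to 3.21) in the obese library and 2.96 (2.83 to 3.10) in the CR library. Plasma cells had 2.40 (2.14 to 2.70) and 2.08 (1.65 to 2.63). In obese macrophages the ratio was 5.71 (5.47 to 5.96) in lipid-associated, 6.51 (6.10 to 6.96) in resident, 8.14 (7.82 to 8.48) in C1q and 13.1 (10.6 to 16.4) in Fcgr4-high cells. The macrophage intervals did not overlap, and none reached down to the fibroblast value.

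In each of the 4 macrophage gates the ratio was higher in CR than in obese cells, but the intervals separated in lipid-associated macrophages alone. It was 7.88 (6.79 to 9.19) against 5.71 there. In Fcgr4-high macrophages it was 17.1 (14.6 to 20.2) against 13.1, with overlapping intervals. In resident macrophages it was 6.88 (5.74 to 8.29) against 6.51, again overlapping. T cells had the opposite order, with 7.43 (6.04 to 9.23) among obese cells and 4.17 (2.95 to 6.02) after CR, the latter on 41 Mt2 UMIs.

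**Figure D2:**
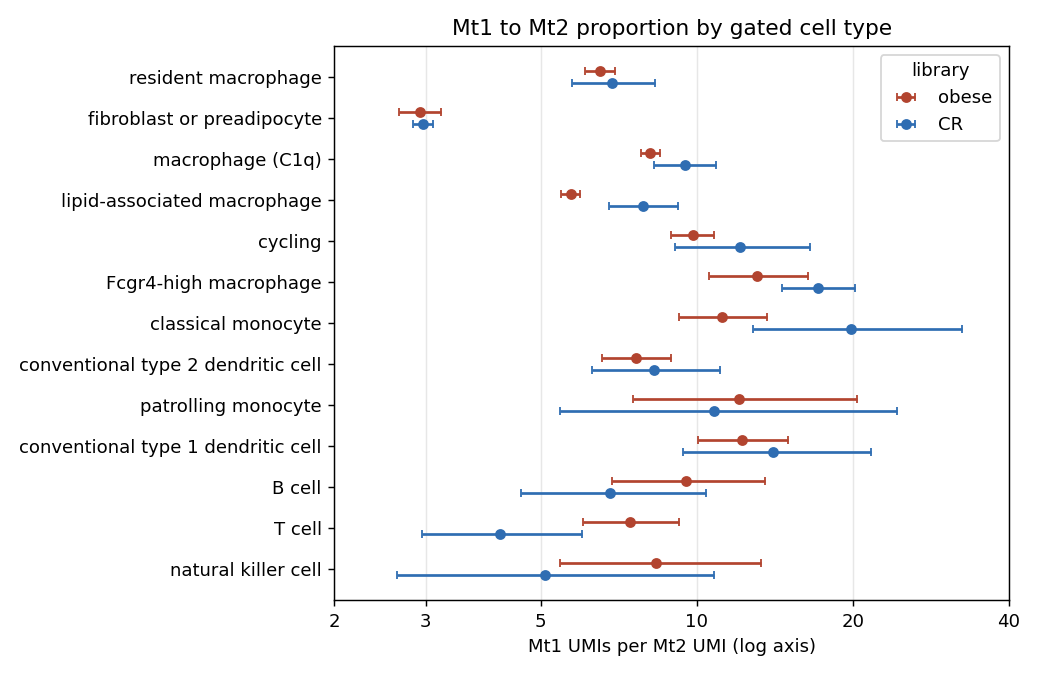
Mt1 UMIs per Mt2 UMI on a log axis for the same 13 gated cell types, with obese cells in red and CR cells in blue and bars as exact 95% intervals. Fibroblast or preadipocyte cells sit at 2.92 and 2.96, left of every obese leukocyte type shown, and Fcgr4-high macrophages sit at 13.1 and 17.1.

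Per-cell detection depends on depth, so each cell was also thinned at random to 1500 UMIs, a depth every kept cell reached. Without thinning Mt1 had a UMI in 97.4% of obese and 92.7% of CR macrophages (all 4 macrophage gates together), and after thinning in 79.3% (77.6 to 81.0) and 67.6% (64.4 to 70.6). Mt2 had a UMI in 44.6% and 31.2% without thinning, and in 21.5% (19.8 to 23.2) and 13.7% (11.5 to 16.1) with it. Across the 12 compared leukocyte types the thinned share of cells with Mt1 was lower in CR in 8. Sizes varied among these 8, from 40.3% and 40.2% in type 2 dendritic cells to 59.9% and 42.0% in cycling cells. Type 1 dendritic cells went the other way, from 29.5% (24.5 to 34.9) to 41.3% (31.8 to 51.4). No compared type is known to lack Mt1, so no share gives its background directly. Among compared leukocyte types the lowest thinned shares were those of NK cells, 18.3% in obese and 19.5% in CR cells, at median depths of 3495.5 and 3120 UMIs.

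The metallothionein signal was uneven among cells of 1 gate. In obese resident macrophages 21.2% of thinned cells held 10 or more Mt1 UMIs and 9.65% held 0. In CR resident macrophages 10.5% held 10 or more and 12.3% held 0. In obese lipid-associated macrophages 5.92% held 10 or more, against 0 of 106 cells in CR, which allows a share of up to 2.83% when 3 cells are taken as the limit of a count of 0. Fcgr4-high macrophages had few such cells in either library, with 0.913% and 0.723%. Over all 4 macrophage gates and without thinning, the tenth of obese cells with most Mt1 UMIs carried 37.5% of them. The tenth with most Mt2 carried 68.3% of the Mt2 UMIs. These shares include differences between gates and in depth. Within single gates, also without thinning, they ran from 30.5% and 53.1% in resident to 41.9% and 83.5% in Fcgr4-high macrophages.

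Mt2 was detected more often in cells above the median of Mt1 than in the others in 21 of 24 pairs of a compared leukocyte type and a library. The exceptions were classical monocytes and type 1 dendritic cells of the CR library and obese NK cells, where Mt2 is sparse. In obese macrophages thinned to 1500 UMIs, Mt2 had a UMI in 38.8% of the 990 cells above the median of 2 Mt1 UMIs and in 7.82% of the 1253 cells at or below it. In CR macrophages the shares were 21.7% of 374 cells above the median of 1 and 8.02% of 524 cells at or below it. Fibroblast or preadipocyte cells showed the same direction, with 82.8% against 34.9% in the CR library.

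**Figure D3:**
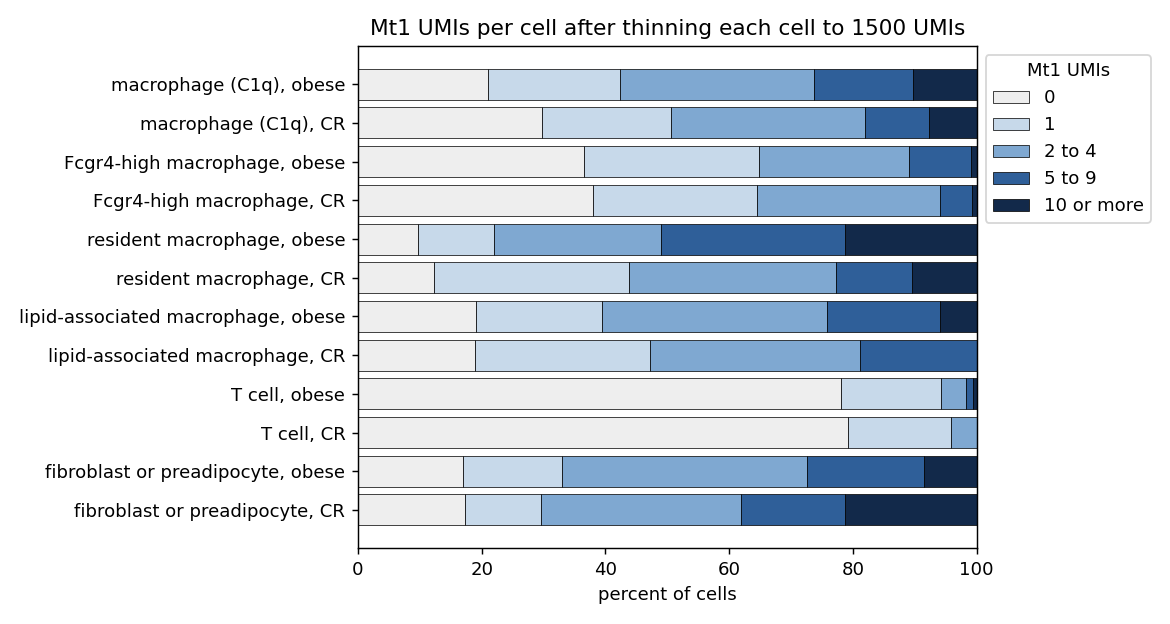
Percent of cells (x axis) by number of Mt1 UMIs after each cell was thinned to 1500 UMIs, for 4 macrophage gates, T cells and fibroblast or preadipocyte cells in each library (1 bar each, darker for more UMIs). The darkest segment, 10 or more UMIs, falls from 21.2% in obese to 10.5% in CR resident macrophages and rises from 8.49% to 21.3% in fibroblast or preadipocyte cells.

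Between the libraries, Mt1 was lower in CR in all 12 leukocyte types with at least 50 cells in each, with a median difference of -0.49 on the log2 scale of CPM + 5 and 10 of 12 intervals below 0. The exceptions were patrolling monocytes (-0.33, -0.69 to 0.01) and NK cells (-0.30, -0.74 to 0.13). Type 1 dendritic cells (-0.29, -0.46 to -0.12) had the opposite direction with thinned cells, at a mean of 0.594 Mt1 UMIs in obese and 0.625 in CR cells. NK cells did so too, at 0.206 and 0.221. The largest differences were in T cells (-1.13), cycling cells (-1.04, -1.16 to -0.91) and resident macrophages (-0.85, -0.95 to -0.75). These 3 passed a 1.5-fold difference downward, as did 3.55% of all 32634 tested pairs of a gene and a leukocyte type, while 8.23% of pairs passed it upward. In C1q, lipid-associated and Fcgr4-high macrophages the Mt1 differences were -0.49 (-0.56 to -0.43), -0.45 (-0.53 to -0.38) and -0.40 (-0.50 to -0.30), short of 1.5-fold. Over the compared leukocyte types the median of all tested genes lay between 0.01 and 0.14. In clusters made without the 4 genes, the Mt1 difference was -0.24 in C1q and -0.11 in Fcgr4-high macrophages, and in cycling cells it was -0.66 with no upper limits on cells.

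Mt2 was lower in CR in 11 of 12 types, with 7 intervals below 0, and the exception was NK cells (0.36, -0.65 to 1.32). It passed the filter on low levels, which asks for 50 CPM in at least 1 library, in 7 types, and 6 of these were lower by over 1.5-fold, beside 3.55% of all pairs of a gene and a type. In 2 of the 6, cycling cells and classical monocytes, it passed the filter through the obese library alone, where it is high. The differences were -0.70 (-0.89 to -0.51) in C1q, -0.92 (-1.18 to -0.66) in resident, -0.90 (-1.11 to -0.69) in lipid-associated and -0.73 (-1.09 to -0.37) in Fcgr4-high macrophages. Classical monocytes had 77.4 CPM in obese and 30.9 CPM in CR cells (-1.20, -1.83 to -0.59), the latter on 21 UMIs. The Fcgr4-high value ranged widely over the alternatives: it was -1.08 with a stricter gate, -0.01 in clusters, -0.24 with thinned cells and -0.28 with possible doublets left out. In classical monocytes it was -0.23 in clusters, in cycling cells -0.24 with no upper limits on cells, and in lipid-associated macrophages -0.42 with no such limits.

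**Figure D4:**
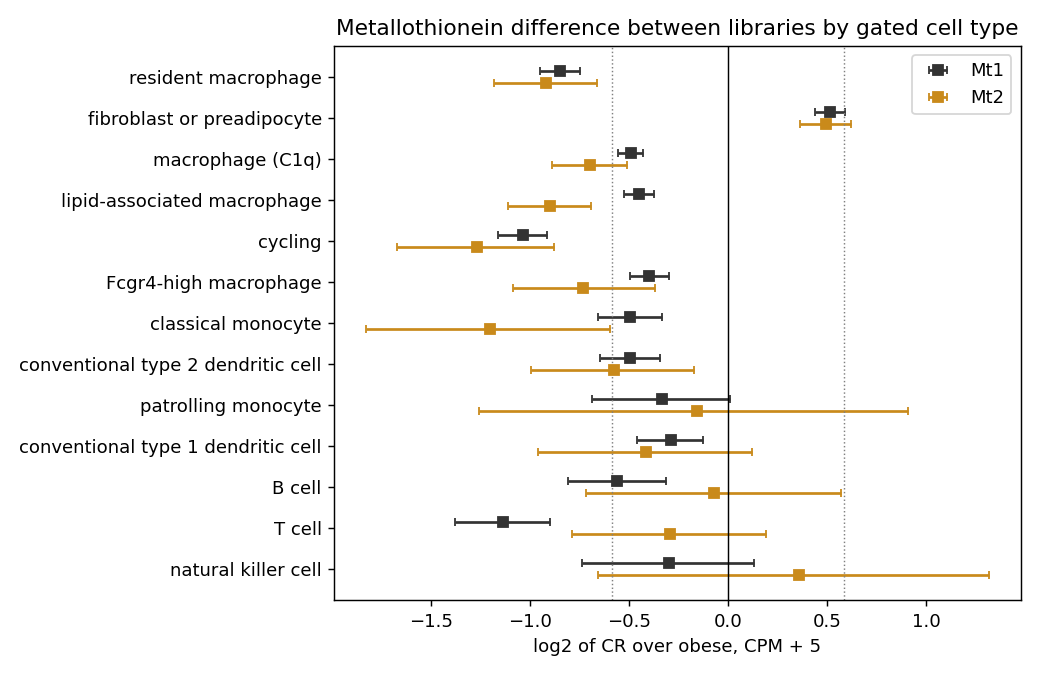
Difference between libraries, as log2 of CR over obese with 5 CPM added to each side, for Mt1 (black) and Mt2 (orange) in 13 gated cell types, with exact 95% intervals for counting error and dotted lines at 1.5-fold. Every Mt1 point of the leukocyte types lies left of 0, from -1.13 to -0.29, and the fibroblast or preadipocyte points lie right of 0 (0.51 and 0.49).

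Taken over all 4 macrophage gates, Mt1 went from 2305 CPM (2283 to 2327) in 2243 obese cells to 1242 CPM (1214 to 1270) in 898 CR cells, a difference of -0.89 (-0.93 to -0.85). Mt2 went from 330 CPM (322 to 339) to 121 CPM (113 to 130), a difference of -1.41 (-1.52 to -1.30). In this comparison 6.14% of 2720 tested genes were lower and 13.2% higher by at least 1.5-fold. Both pooled differences were larger than that of any 1 of the 4 gates, and the mix of gates differed between the libraries. Fcgr4-high macrophages, low in both metallothioneins, were 4.39% of leukocytes in the obese library and 23.5% in the CR library, while C1q macrophages went from 23.2% to 7.74%. With the obese mix of gates applied to both libraries, CR macrophages held 1600 CPM of Mt1 and 186 CPM of Mt2, and the differences were -0.52 and -0.81. This weighting was added after the pooled values were seen. Over all leukocytes, mix included, Mt1 differed by -0.97 (-0.997 to -0.939) and Mt2 by -1.34 (-1.42 to -1.25).

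Fibroblast or preadipocyte cells had the opposite direction. Mt1 was 2669 CPM in obese and 3814 CPM in CR cells, a difference of 0.51 (0.44 to 0.59), and Mt2 was 914 and 1287 CPM, a difference of 0.49 (0.36 to 0.62). Neither reached 1.5-fold, which 5.2% of 3118 tested genes passed upward in these cells. Thinned shares of cells with Mt1 were alike, 83.0% (74.5 to 89.6) and 82.6% (77.9 to 86.7), and the mean per thinned cell was 3.84 and 5.80 UMIs. With possible doublets left out the Mt1 difference was 0.33. As the sort was for CD45+ cells, the gate is not a sample of the tissue's stroma. Endothelial cells, too few in the obese library to compare (21 cells), held 901 CPM (738 to 1089) of Mt1 there and 446 CPM (407 to 488) in 198 CR cells.

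The T cell difference lay more in cells high in Mt1 than in the share of cells with Mt1. Mt1 was 366 CPM (340 to 392) in 521 obese and 164 CPM (140 to 190) in 357 CR T cells. Yet the thinned share of cells with Mt1 was 21.9% (18.4 to 25.7) and 20.7% (16.6 to 25.3), and the highest thinned cell held 20 UMIs in the obese and 3 in the CR library. With the tenth of T cells highest in Mt1 left out of each library, an alternative added after these values were seen, the levels were 119 and 102 CPM, a difference of -0.22. Those cells were left out by their own Mt1 level, which shrinks such a difference by construction, so the value is no separate support. With cells that passed gates of different lineages or had a high doublet score left out, the T cell difference was also -0.22. In clusters made without the 4 genes it was -0.04. B cells went from -0.56 (-0.81 to -0.31) to 0.34 when such cells were left out.

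Macrophage transcripts appeared in lymphocytes too, and their levels are given beside Mt1. In obese B cells Mt1 stood at 16.0% of its macrophage level, and 7 macrophage genes (C1qa, C1qb, C1qc, Lyz2, Apoe, Cd68 and Csf1r) stood at 14.7% to 21.7% of theirs. In obese NK cells Mt1 was at 11.3% and these genes at 9.52% to 13.0%, and in obese T cells Mt1 was at 15.9% and these genes at 6.60% to 11.0%. After CR, Mt1 was above the range of the 7 genes in each type, at 13.2% in T cells (4.33% to 7.49%), 20.04% in B cells (11.9% to 18.3%) and 17.0% in NK cells (1.37% to 12.5%). The part of free RNA and doublets in the lymphocyte values of Mt1 was not tested.

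Mtf1, the zinc sensor that switches on the metallothioneins, was sparse. In the obese library it ranged from 7.80 CPM (2.86 to 17.0) in NK cells to 18.1 CPM (10.9 to 28.3) in Fcgr4-high macrophages over the 12 leukocyte types, with overlapping intervals at both ends. In the CR library it ranged from 5.88 CPM (1.60 to 15.1) in classical monocytes to 28.4 CPM (19.0 to 40.8) in cycling cells, whose intervals did not overlap. Resident macrophages, highest in Mt1, held 8.09 CPM (4.42 to 13.6) of Mtf1. It had a UMI in 8.56% of obese and 10.4% of CR macrophages before thinning, and in 1.47% and 3.01% after. It did not reach the 50 CPM filter in any compared leukocyte type.

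Mtf1 was lower in CR in 3 of 12 types, and 1 interval lay above 0, that of cycling cells, which went from 13.6 CPM on 51 UMIs to 28.4 CPM on 29 UMIs (0.84, 0.27 to 1.39). Over all macrophages Mtf1 was 11.4 CPM (9.88 to 13.0) in obese and 16.6 CPM (13.5 to 20.2) in CR cells, a difference of 0.40 (0.14 to 0.67), opposite in sign to Mt1 and Mt2. With the obese mix of gates it was 0.13. Over all leukocytes it was 0.33 (0.15 to 0.50).

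Slc30a1, which exports zinc from the cell, was the rarest of the 4 transcripts over all leukocytes, though not in every type. In obese resident macrophages Slc30a1 stood above Mtf1 (8.09 CPM, 4.42 to 13.6), with overlapping intervals. In obese cells it was 12.1 CPM (7.51 to 18.5) in resident macrophages, 9.36 CPM (7.28 to 11.9) in lipid-associated, 7.66 CPM (5.92 to 9.75) in C1q and 6.68 CPM (2.69 to 13.8) in Fcgr4-high macrophages, with overlapping intervals. Lymphocytes were lower in level, with 1.30 CPM (0.0329 to 7.25) in NK cells on 1 UMI. T cells held 3.86 CPM (1.67 to 7.60) and B cells 3.87 CPM (1.05 to 9.91). Each lymphocyte interval overlapped those of C1q and Fcgr4-high macrophages. In the CR library NK cells, on 2 UMIs, held 7.53 CPM and C1q macrophages 7.08 CPM. In obese type 1 dendritic cells Slc30a1 was 1.80 CPM (0.659 to 3.91), with an interval below those of resident, lipid-associated and C1q macrophages. Endothelial cells of the CR library held 20.02 CPM (12.4 to 30.6), the highest level with over 50 cells.

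No compared leukocyte type separated the libraries for Slc30a1, and no interval of its 12 differences excluded 0. Over all macrophages it was 8.69 CPM (7.40 to 10.1) in obese and 8.82 CPM (6.61 to 11.5) in CR cells, a difference of 0.01 (-0.28 to 0.31). It had a UMI in 6.87% of obese and 5.12% of CR macrophages. At this depth a difference within that interval was not detectable.

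**Figure D5:**
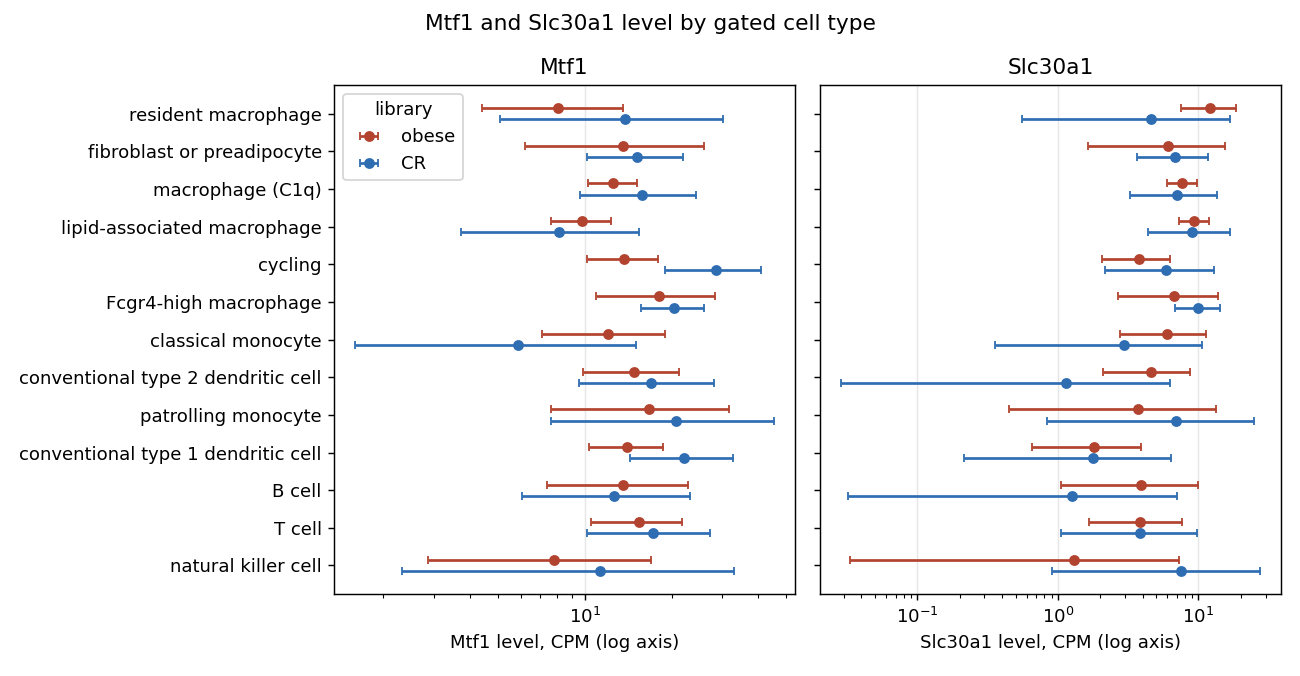
Level of Mtf1 (left) and Slc30a1 (right) in CPM on a log axis for the 13 gated cell types, obese in red and CR in blue, with exact 95% Poisson intervals. Most intervals of a type overlap between libraries, and cycling cells (13.6 obese, 28.4 CR) have the only Mtf1 difference off 0.

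The other metallothioneins were almost absent. Mt4 had 1 UMI in the obese library and 0 in the CR library, and Mt3 had 271 UMIs in 70 obese cells and 51 UMIs in 26 CR cells. Of the obese Mt3 UMIs, 207 were in 23 lipid-associated macrophages, and the 3 highest cells of the library held 143, with 74 in 1 cell.

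Other zinc transporters were low in macrophages. None of the 10 listed SLC30 genes (Slc30a1 among them), which move zinc out of the cytosol, passed the filter on low levels, although 7 had a UMI. Slc30a5, which loads zinc into the secretory pathway, was the highest, with 20.04 CPM in obese macrophages and 25.5 CPM in those of the CR library (0.28, 0.05 to 0.51). Of 14 SLC39 genes, which bring zinc into the cytosol, 2 passed the filter and neither reached 1.5-fold, with a median of 0.22 beside 0.10 over all genes tested. Slc39a1 was the highest, with 99.3 CPM in obese macrophages and 112 CPM in the CR library (0.16, 0.04 to 0.28).

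Gene lists of other inputs to the metallothionein promoters were mixed in macrophages. Pooled values of these lists also carry the differing mix of gates, so gate values are given beside them, and each count of calls is to be read against the 6.14% lower and 13.2% higher over all genes in macrophages. Of 14 listed glucocorticoid response genes, 13 were in the table, 5 passed the filter, 1 was lower by over 1.5-fold and none higher, with a median of -0.45. That gene was Klf9, a transcription factor induced by glucocorticoids, with 54.8 CPM against 23.97 CPM in CR (-1.05, -1.26 to -0.83). Klf9 passed the filter through the obese library alone, where it is high. Within the gates its difference was smaller, from -0.68 in C1q to -0.19 in lipid-associated macrophages. Dusp1, a phosphatase that is also an immediate early gene, was the highest of the list, at 2711 and 1931 CPM (-0.49, -0.52 to -0.46). It was -0.75 (-0.86 to -0.64) in resident and 0.04 in lipid-associated macrophages. Tsc22d3, named after its values were seen, was -0.45 pooled, -0.89 (-1.17 to -0.62) in resident and -0.19 in lipid-associated macrophages. Calls lower by over 1.5-fold were 3 of 6 in resident, 2 of 6 in C1q and 1 of 3 in Fcgr4-high macrophages. In lipid-associated macrophages 0 of 3 were lower, and in Fcgr4-high macrophages 1 was higher. In the same order, 3.56%, 1.07%, 3.21% and 1.43% of all genes were lower. Of 12 oxidative stress (NRF2) genes, 6 passed the filter, none was lower and 1 was higher by over 1.5-fold, with a list median of 0.06. The gene past 1.5-fold was the glutathione reductase gene Gsr (28.5 and 50.4 CPM, 0.73), which passed the filter through the CR library alone. Ftl1, the ferritin light chain, was the highest of that list, with a difference of -0.48 pooled and -0.07 in lipid-associated macrophages, though reads of its many pseudogenes cannot be told apart from it. In lipid-associated macrophages alone, 4 of 9 tested genes of the list were higher in CR by over 1.5-fold, beside 5.09% of all genes there. They were Hmox1 (0.99), Gclm (1.60), Slc7a11 (2.65) and Gsr (1.25), of which the first 3 were named after their values were seen, and Slc7a11 and Gsr passed the filter through the CR library alone. In the same cells the differences of Mt1 and Mt2 were -0.45 and -0.90. Hmox1 had the opposite direction elsewhere, at -1.13 (-1.48 to -0.80) in resident, -0.52 in C1q and -0.47 in all macrophages. In Fcgr4-high macrophages it was -0.13 (-0.47 to 0.22). The relation of this list to Mt1 and Mt2 was not tested.

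Of 8 copper handling genes, 3 passed the filter and none reached 1.5-fold, with a median of 0.36. The copper chaperone Atox1 was the highest, with 679 CPM against 914 CPM in CR (0.43, 0.38 to 0.47). Of 12 immediate early and heat shock genes, which also respond to tissue digestion, 10 passed the filter, none was lower and 2 were higher by over 1.5-fold. These were the heat shock gene Hspa1a, at 77.5 and 213 CPM (1.40, 1.30 to 1.51), whose reads may be split with the near-identical Hspa1b, and Fosb, at 197 and 338 CPM (0.76, 0.69 to 0.84). Within the 4 gates Hspa1a ranged from -0.27 in resident to 2.44 in lipid-associated macrophages, and Fosb from 0.30 in resident to 1.61 in Fcgr4-high macrophages. Fos, the highest of the list, was at 2933 and 2928 CPM, and the list median was 0.28. The part of these differences in the values of Mt1 and Mt2 was not tested.

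Across 31 pairs of a cell type and a library with at least 50 cells, the pattern of Mt1 on the log2(CPM + 5) scale was most like that of Mt2, with a Pearson correlation of 0.91. The pairs share 2 libraries and differ in depth, so the correlations are descriptions. Mt1 correlated with Slc30a1 at 0.50 and with Mtf1 at 0.05. Of 5875 genes ranked, the 10 most like Mt1 other than Mt2 included Man1c1 (0.90), Plbd2, Cnpy2, Cmtm3, Timp2, Camk1, Adam9, Rab3il1 and Ecm1 (0.86). Those most like Slc30a1 included Bag3 (0.76), Rhoc, Cav2 and Tns1 (0.72).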

How the data were processed

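The deposited files hold UMI counts per gene and barcode, 1 table per library. Per the methods of the study, the authors made them with Cell Ranger 2.2 on mm10 with default settings and took the filtered tables. Seurat is also named in the processing notes. Kept cells had at least 200 genes and a mitochondrial share and log UMI total within 3 median absolute deviations above the library's median. Each cell was assigned to the marker list of highest mean z-score if that was at least 0.5 and 3 markers had a UMI. Levels are summed UMIs per 1000000 (CPM), and differences log2 of CR over obese with 5 CPM added. Genes were tested against the 1.5-fold limit if they had 20 or more UMIs over both libraries and reached 50 CPM in 1 of them. Intervals are exact (Poisson, Clopper-Pearson or conditional binomial). Thinning drew 1500 UMIs per cell (seed 1). Types with at least 50 cells in each library were compared. Wider cell limits, a stricter gate, clusters, other scalings, thinning, other pseudocounts and doublet removal were tried. The steps were tested on simulated data. The 4 genes, the gene lists and the marker lists were chosen with earlier results of these data known. Named genes were the 4 members, in each list those past 1.5-fold in macrophages (up to 4) and the highest, and those most correlated with Mt1 (10) and Slc30a1 (5), some of which are not reported here; Slc30a5, Mt3 and Mt4 were named after their values were seen. Python 3.11.15, numpy 2.4.6, scipy 1.17.1 and scanpy 1.11.5 were used. Sequences are from RefSeq and positions from GENCODE vM21.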

Additional observations from a re-analysis of the deposited data

Results flagged for a closer look

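Metallothionein differences between the libraries ran in opposite directions in macrophages and in fibroblast or preadipocyte cells. Mt1 differed by -0.89 on the log2 scale in all macrophages and by 0.51 in fibroblast or preadipocyte cells, CR over obese. Mt2 differed by -1.41 and 0.49. The macrophage values include the differing mix of gates, and with the obese mix applied to both libraries they were -0.52 for Mt1 and -0.81 for Mt2. With 1 library per condition, the difference between these effects was not tested beyond counting error. The fibroblast or preadipocyte gate held 106 obese and 305 CR cells, and its direction was the same in the 11 alternatives run for each gene, from 0.33 to 0.59 for Mt1 and from 0.43 to 0.63 for Mt2.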

How the results depend on the processing

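No alternative changed the sign of the Mt1 or Mt2 difference in all leukocytes (11 alternatives) or in all macrophages (12). Values are log2 of CR over obese, and the cause of each shift was not tested unless stated. In leukocytes, Mt1 (-0.97 as reported) was -0.88 with no upper limits on cells, -0.92 with limits of 5 MADs, -1.02 as a mean of per-cell CPM and -1.18 with TMM factors. Mt2 there (-1.34) was -0.99 and -1.18 with those wider limits, -1.54 with TMM, -1.19 thinned to 1500 UMIs and -1.21 with a pseudocount of 20 CPM. In macrophages, Mt1 (-0.89) was -0.83 with a stricter gate, -0.84 in clusters, -1.08 with TMM and -0.52 with the obese mix of gates. Mt2 there (-1.41) was -1.09 with no limits, -1.28 with 5 MADs, -1.59 with TMM, -1.21 thinned and -0.81 with the obese mix. The last shift, from -1.41 to -0.81, follows from the mix by construction, and -0.81 is the difference left with the mix held equal. Mt1 was lower in CR in 12 of 12 leukocyte types in all alternatives except thinning (10) and doublets left out (11). The thinned share of cells with Mt1 was lower in CR in 5 types in clusters, against 8. The share of genes past 1.5-fold in macrophages, 19.3%, was 8.35% with no filter on low genes.

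Slc30a1 in macrophages kept its sign in 7 of 12 alternatives, between -0.10 and 0.07, and Mtf1 stayed above 0 in all 12, from 0.13 to 0.76. Mtf1 and Slc30a1 rest on few UMIs, and no replicate of either condition was available to set the spread between mice. No paired analysis was possible because each condition has 1 library and no result comes from a test.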

Other observations

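Group 2 innate lymphoid cells, too few in the obese library to compare, held 175 CPM of Mt1 (102 to 280, 17 UMIs in 27 cells) in obese and 534 CPM (433 to 651, 97 UMIs in 61 cells) in CR. The tenth of the CR cells highest in Mt1 carried 76.3% of those UMIs, and the thinned shares of cells with Mt1 were 29.6% and 27.9%.

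Cells gated as erythroid had 411 CPM of Mt1 in the obese and 131 CPM in the CR library, a difference of -1.61 (-1.96 to -1.28). In this gate 73.1% of the 733 tested genes were lower in CR by at least 1.5-fold, with a median of -0.95.

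Cells that passed no gate, led by Crisp1, Retnla and Lyz1, had 2166 CPM of Mt1 in 470 obese cells and 1242 CPM in 155 CR cells, a difference of -0.80 (-0.90 to -0.70).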
